A study of Homo sapiens with 15 samples.

Results

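C/D box small nucleolar RNAs (snoRNAs) whose genes lie outside the ribosomal protein genes were measured in small RNA sequencing libraries. A gene was included when its name starts with SNORD, its raw counts summed to at least 100 over the 15 libraries, and it does not lie on the same strand within a ribosomal protein gene or within GAS5, SNHG1, SNHG5, SNHG29 or ZFAS1. Families with other roles or many copies (SNORD3, SNORD13, SNORD14, SNORD60, SNORD113 to SNORD116 and SNORD118) were left out. This gave 74 of the 399 SNORD genes in the table, which lists 50037 genes in all. The minimum count chose the members, so that they are detected is no result. SNORD148, at 108 counts, was the last gene inside the minimum, and SNORD146, at 83 counts, the first outside it.

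A C/D snoRNA carries the conserved box C and box D, is bound by fibrillarin, NOP56, NOP58 and SNU13, and places a 2′-O-methyl group on the RNA base that its antisense stretch pairs with. Most guide ribosomal RNA, a few guide the spliceosomal U6 RNA, and orphans have no agreed target. In human cells nearly all are cut from the introns of host genes, so a snoRNA outside the ribosomal protein genes is tied to the transcription of a host of another kind.

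The 15 libraries came from cells labelled HEK-293, a line of embryonic kidney origin, wild type, incubated for 18 h. Of these, 5 received very low-density lipoprotein with pcDNA in the title (VLDL), 5 received VLDL with lipoprotein lipase (LPL:VLDL), which releases its fatty acids, and 5 received LPL:VLDL with 20 µM GKT136901, an inhibitor of NADPH oxidases NOX1 and NOX4. All 3 groups thus received lipoprotein, and replicates 1 to 5 of each group were made in experiments 2 to 6. Whether experiments used separate passages is not given in the labels, so part of the spread that the p-values rest on may be technical.

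Libraries held between 5.08 M and 9.76 M counts. The series title names macrophages, and of 18 myeloid marker genes 17 had counts (6401 in all; AIF1 was at 0), while 7 of 12 HEK-293 marker genes had counts (50 in all; LIN28B, NEFM, INA, KRT8 and KRT18 were at 0). Fragments of the labelled line's own markers were thus nearly absent. The myeloid counts were uneven: CSF1R had 1771, ITGB2 1382, SPP1 1316 and LAPTM5 935, while CD163, MARCO and MRC1 had 3, 1 and 4. Of the 18 myeloid genes 8 had enough counts to test, and of the 12 HEK-293 genes 0 had. The summed myeloid level was 69.1 to 92.8 CPM in experiment 2 and 27.6 to 54.7 CPM in the other experiments. CPM are counts in 1000000 counts of the library, here with the library size scaled by its TMM factor (explained below). In bulk RNA, fewer cells of a type and less RNA per cell cannot be told apart. LPL:VLDL replicate 2 stands apart from the other 14 libraries for many of these snoRNAs, and values without it are given beside the treatment differences that it moved most.

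Sequences of 4 U6 guides are shown first because their pairing to a spliceosomal RNA can be read from them. Each line is the whole snoRNA, 5′ to 3′, from the GENCODE v29 annotation of GRCh38, with the longest stretch complementary to RNU6-1 in capitals.
SNORD7: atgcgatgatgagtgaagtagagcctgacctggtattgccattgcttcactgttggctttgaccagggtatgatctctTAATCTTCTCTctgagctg
SNORD8: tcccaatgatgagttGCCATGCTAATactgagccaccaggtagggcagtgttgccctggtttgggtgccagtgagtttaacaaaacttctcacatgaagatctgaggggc
SNORD67: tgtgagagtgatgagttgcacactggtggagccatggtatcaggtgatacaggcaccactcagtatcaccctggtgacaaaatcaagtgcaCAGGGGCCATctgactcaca
SNORD94: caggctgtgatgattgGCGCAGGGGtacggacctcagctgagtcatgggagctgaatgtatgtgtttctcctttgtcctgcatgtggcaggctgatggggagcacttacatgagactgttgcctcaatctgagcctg
SNORD7 lies at chr17:35573657-35573753 (plus strand) in SNHG30. SNORD8 lies at chr14:21397292-21397401 (minus strand) in CHD8, a chromatin remodelling gene. SNORD67 lies at chr11:46762389-46762499 (minus strand) in CKAP5, and SNORD94 at chr2:86135870-86136006 (plus strand) in PTCD3. For some genes the deposited table gives an interval that differs from GENCODE's by a few bases.

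The complementary stretch of SNORD7 spans 11 bases and pairs with U6 bases 43 to 53, directly before CTGA, the letters of box D. Counting back 5 bases from that box, the place at which C/D guides direct the methyl group, leads to U6 base 47. SNORD8 pairs over 11 bases, against U6 50 to 60, and the same count leads to U6 base 53. SNORD67 pairs over 10 bases (U6 56 to 65) with base 60 in that place, and SNORD94 over 9 bases (U6 60 to 68) with base 62, counted from CGGA, which differs from box D by 1 letter. Among the other 57 members with a sequence the median longest stretch was 6 bases, and 3 reached 9 or more (SNORD10, SNORD111 and SNORD111B). SNORD10, also known as a U6 guide but absent from the list used here, matched 11 bases at U6 72 to 82.

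A second set of sequences shows members that share a host and differ in level, together with SNORD10. Capitals mark TGATG, the core of box C, and the last CTGA, box D.
SNORD63: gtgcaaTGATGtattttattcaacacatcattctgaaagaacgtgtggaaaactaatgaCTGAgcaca
SNORD63B: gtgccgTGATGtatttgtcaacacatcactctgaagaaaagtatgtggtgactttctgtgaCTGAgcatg
SNORD88A: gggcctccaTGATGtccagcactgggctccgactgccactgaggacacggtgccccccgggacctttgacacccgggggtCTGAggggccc
SNORD88B: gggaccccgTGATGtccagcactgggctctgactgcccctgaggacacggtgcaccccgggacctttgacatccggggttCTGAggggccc
SNORD88C: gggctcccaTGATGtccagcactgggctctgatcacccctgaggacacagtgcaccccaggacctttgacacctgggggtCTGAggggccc
SNORD10: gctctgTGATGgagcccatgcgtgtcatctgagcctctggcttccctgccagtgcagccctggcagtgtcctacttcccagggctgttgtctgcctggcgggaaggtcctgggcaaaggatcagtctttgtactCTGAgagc
SNORD63 lies at chr5:138561043-138561110 (minus strand) and SNORD63B at chr5:138558970-138559039 (minus strand), both in HSPA9, the gene of a mitochondrial chaperone. SNORD88A is at chr19:50799442-50799532 (minus strand), SNORD88B at chr19:50799032-50799122 (minus strand) and SNORD88C at chr19:50802328-50802418 (minus strand), all in C19orf48P. SNORD10 is at chr17:7576811-7576952 (plus strand) in EIF4A1, a translation initiation helicase. SNORD88A and SNORD88B were identical in 91.2% of aligned bases, SNORD88C and SNORD88B in 87.9%, and SNORD63 and SNORD63B in 71.2%.

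Of the 62 members with a GENCODE sequence, 54 (87.1%) held TGATG within the first 25 bases and 59 (95.2%) held CTGA within the last 20, on the transcript strand. Both were present in 53 (85.5%), against 1 of 149 H/ACA snoRNA transcripts (0.671%), which carry other boxes. A match of letters is a description and does not show a working box.

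The 74 members held 18964624 of 132787575 counts, 14.3%, and all SNORD genes together held 56.7%. Members made up 14.5% ± 0.782 of the counts of VLDL libraries, 14.2% ± 1.2 of LPL:VLDL libraries and 14.2% ± 1.26 of GKT136901 libraries (SD over 5 libraries), and the ranges of the groups overlapped. SNORD63 alone held 19.5% of member counts, the 5 most abundant members 60.6% and the 10 most abundant 80.9%. At the other end, 11 members had fewer than 1000 counts.

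Levels are given below as CPM scaled by TMM factors, which align libraries on the bulk of their genes, and levels of different genes are compared per kilobase (kb) of annotated length. SNORD63 was highest at 410842 CPM per kb, followed by SNORD2 in EIF4A2, another translation initiation helicase, at 284373. SNORD104 in SNHG25 reached 168866, SNORD59A in ATP5F1B, the gene of a mitochondrial ATP synthase subunit, 160703, SNORD127 in PRPF39, a splicing factor gene, 140247, SNORD59B 128748 and SNORD69 in GNL3, the nucleostemin gene, 116843 CPM per kb. The next step down led to SNORD82 in NCL, the nucleolin gene, at 53765, SNORD95 in RACK1, a ribosomal scaffold gene, at 47406 and SNORD1B in SNHG16 at 43248 CPM per kb. SNORD145 was lowest at 10.3 CPM per kb.

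Per library, SNORD63 measured 26705, 30257, 30147, 28033 and 24288 CPM in VLDL replicates 1 to 5. It measured 24135, 34622, 28922, 24143 and 29925 CPM with LPL:VLDL and 30985, 31438, 27804, 22467 and 25187 CPM with GKT136901. The groups overlapped and the coefficient of variation over 15 libraries was 12.2%. SNORD2 varied by 14.2% and SNORD69 by 11.4%, whereas SNORD104 varied by 25.6% and SNORD95 by 27.4%. SNORD104 and SNORD59A, neighbours in the order of levels, lay closer together than their own spread over libraries. The steps from SNORD63 to SNORD2 and from SNORD69 to SNORD82 exceeded their SDs.

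**Figure D1:**
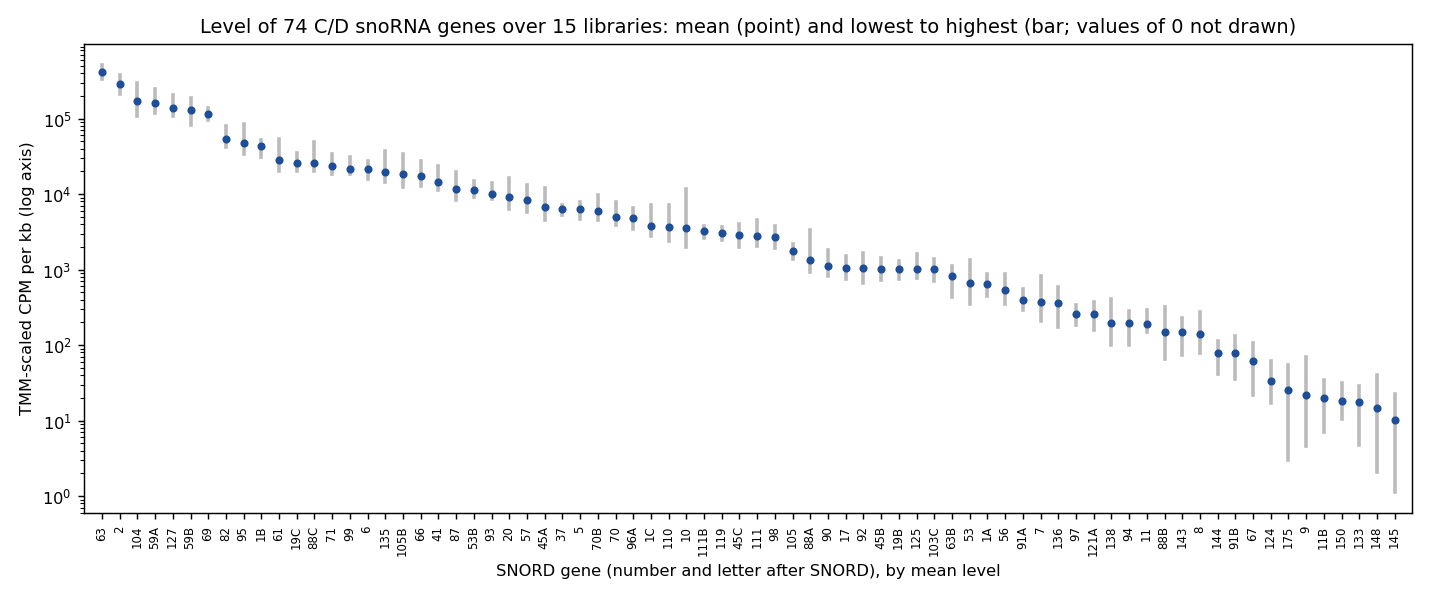
Mean level of each of the 74 snoRNAs (points) and its lowest to highest library (bars), in TMM-scaled CPM per kb on a log axis. Levels fall from 410842 for SNORD63 to 10.3 for SNORD145 across the 74 snoRNAs.

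SnoRNAs of 1 host often differed in level. Of the 74 members 73 lay in 46 hosts, and in 18 hosts with at least 2 members the ratio of the highest to the lowest member, per kb, ran from 1.16 to 503 with a median of 8.22. It passed 10 in 8 hosts. HSPA9 held the widest pair, SNORD63 at 410842 and SNORD63B at 816 CPM per kb. In GNL3 the ratio of SNORD69 to SNORD136 was 325, and in NOP58, which encodes a core protein of the C/D particle, that of SNORD70B to SNORD11B was 308. SNORD88C exceeded SNORD88B, its close copy, 170-fold. The closest hostmates were SNORD111B and SNORD111 in SF3B3 (1.16-fold) and SNORD59A and SNORD59B in ATP5F1B (1.25-fold). Reads that fit near-identical copies equally well were not counted, so levels of the SNORD88, SNORD70 and SNORD45 copies are uncertain.

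**Figure D2:**
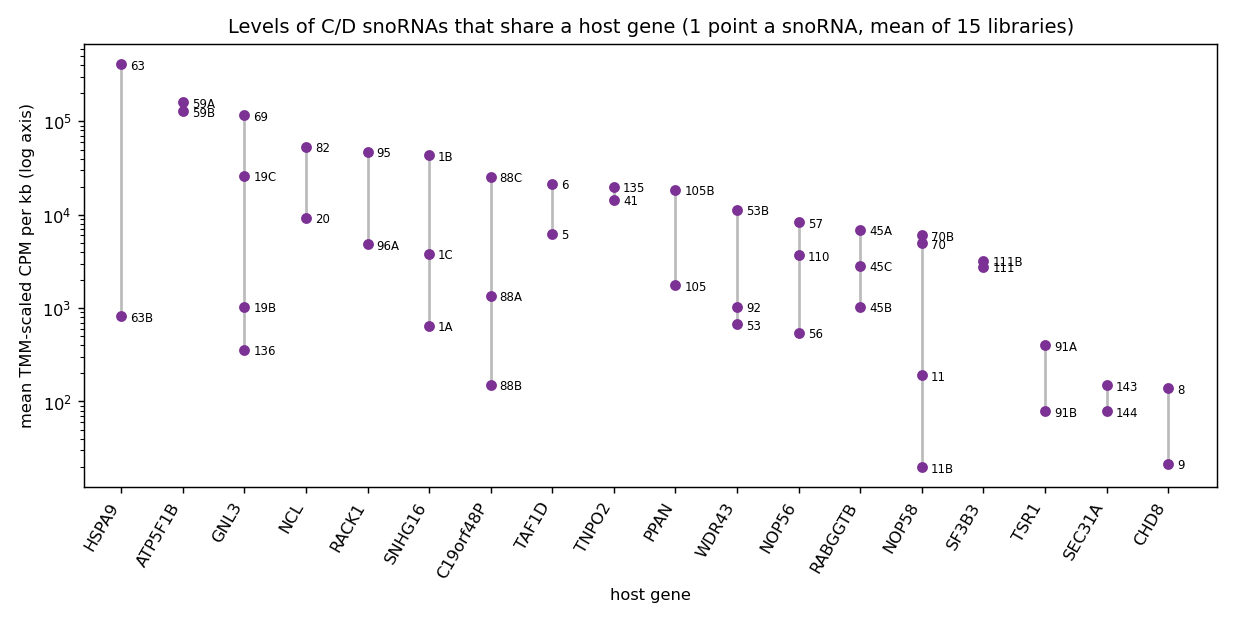
Mean level per kb (log axis) of snoRNAs that share a host, 1 point a snoRNA, labelled by the number and letter of its name, for 18 hosts. Points of HSPA9 span 503-fold and those of SF3B3 1.16-fold.

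Exon counts of the hosts themselves had a median of 126, with 0 in EIF4A1, and no host had more exon counts than its snoRNAs had. These are small RNA libraries, and reads that fit exons of several genes were not counted. A low or 0 exon count therefore does not show that a host was not expressed. Hosts were classed by short fixed lists of names, so the classes are no full split by function. PPAN and WDR43, both ribosome biogenesis genes, fell among the other genes. By class of host, 15 members lay in listed genes of the nucleolus, 8 in long noncoding RNAs, 7 in translation genes and 2 in a chaperone gene. Another 41 lay in other genes. Median levels were 10785 CPM per kb in long noncoding hosts, 6331 in translation hosts, 6059 in nucleolar hosts and 1040 in other hosts, with overlapping ranges. Of 13 genes for particle proteins and their assembly factors only NOP58 had enough counts to test (117 in all), and no treatment or experiment call was made for it.

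Members of the NOP56 introns, whose host encodes another core particle protein, ran from SNORD57 at 8345 CPM per kb over SNORD110 at 3691 to SNORD56 at 541. SNORD86 lies within a NOP56 exon, where reads belong to more than 1 gene and were not counted, and had 0 counts. In the SNHG32 introns SNORD52 had 0 counts and SNORD48 had 51, and each is annotated in 5 copies, so its reads map to several places. SNORD64, SNORD107, SNORD108, SNORD109A and SNORD109B of the Prader-Willi locus, a neuronal imprinted region, were at 0; the first 3 overlap exons of other genes and the last 2 are copies of each other. Zeros in these genes therefore cannot be read as absence. Of 143 genes on the primary chromosomes, 69 were below the minimum and 45 of these at 0; 8 of the 69 overlapped an exon of another gene, against 0 of the 74 members.

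The 5 U6 guides of the list were among the lower members, and SNORD10, the guide outside the list, stood at 3580 CPM per kb. SNORD7 stood at 369 CPM per kb, SNORD94 at 195, SNORD8 at 139, SNORD67 at 62.4 and SNORD9 at 21.6. SNORD8 exceeded SNORD9 6.44-fold, though both lie in CHD8. SNORD9 ranged from 0.482 to 7.2 CPM, with the top value in LPL:VLDL replicate 2 and at most 5.07 CPM elsewhere.

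The treatment comparisons ask whether lipase products of VLDL, or NADPH oxidase inhibition in their presence, changed the level of any member. In edgeR's quasi-likelihood test, adjusted over all 4099 genes tested, 0 of 73 tested members (SNORD148 had too few counts) were called between LPL:VLDL and VLDL, against 0% of all genes. None was called between GKT136901 and LPL:VLDL (0% of all genes) or between GKT136901 and VLDL (0%). With the experiment as a block, members called stayed at 0 of 73 in each, against 0.0244%, 0% and 0% of all genes. DESeq2, limma voom and every other setting run also gave 0 members, in 96 of 96 results, with each setting counted once for each of the 3 comparisons. The settings reuse the same libraries. The median standard error (SE) of a member's log2 difference was 0.224 without the block and 0.13 with it. Each SE was derived from the test, as the size of the log2 difference divided by the square root of the F statistic. A p that misses the threshold does not show that levels were equal.

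At an unadjusted p under 0.05, without the block, 0 members passed for LPL:VLDL against VLDL (1.88% of all genes), 0 for GKT136901 against LPL:VLDL (2.12%) and 1 for GKT136901 against VLDL (2.22%). With the block 3, 3 and 1 passed, against 4.2%, 3.68% and 4.32% of all genes. The median log2 difference over members was 0.08 for LPL:VLDL minus VLDL (all genes 0.01), -0.04 for GKT136901 minus LPL:VLDL (all genes -0.02) and 0.02 for GKT136901 minus VLDL (all genes -0.0042). The first changed sign to -0.07 with library sizes alone, where all genes had -0.11, so no direction is given for the members as a whole. Without LPL:VLDL replicate 2 the first was -0.08 (all genes -0.02) and the second 0.04.

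SNORD95, a guide of 28S ribosomal RNA, was higher with LPL:VLDL than with VLDL in 5 of 5 experiments. It measured 2409, 3080, 3287, 2272 and 2363 CPM in VLDL replicates 1 to 5, 2934, 5400, 3741, 2296 and 2653 CPM with LPL:VLDL, and 3125, 3261, 3249, 2124 and 2606 CPM with GKT136901. The groups overlapped, with means of 2682 ± 466, 3405 ± 1236 and 2873 ± 497 CPM (SD, n = 5 each). The log2 difference was 0.34 (SE 0.211, adjusted p = 0.999 in edgeR), and 0.30 (SE 0.111, adjusted p = 0.988) with the block. Without LPL:VLDL replicate 2 the mean with LPL:VLDL was 2906 ± 615 CPM and the log2 difference 0.11.

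SNORD93 in SNHG26 and SNORD103C were also higher with LPL:VLDL in all 5 experiments, so 3 of 73 members were (4.11%), against 3.44% of all genes, and 0 were lower in all 5 (3.46%). SNORD103C measured 52.5, 80.4, 79.5, 59.6 and 64.2 CPM with VLDL and 64.6, 103, 100, 70.8 and 76.3 CPM with LPL:VLDL. The ranges overlapped, and its log2 difference was 0.30 (SE 0.225, adjusted p = 0.999), or 0.19 without LPL:VLDL replicate 3. SNORD105B, a guide of 18S ribosomal RNA in PPAN, a ribosome biogenesis gene, differed by 0.33 (SE 0.208) and was higher in 4 of 5 experiments, but by 0.08 without LPL:VLDL replicate 2.

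SNORD10 and SNORD88A had the lowest p for LPL:VLDL against VLDL without the block, and both rested on 1 library. SNORD10 measured 403, 1756, 498, 317 and 448 CPM in LPL:VLDL replicates 1 to 5, against 376 to 602 CPM with VLDL and 291 to 540 CPM with GKT136901. SNORD88A measured 113, 329, 130, 96.3 and 115 CPM with LPL:VLDL, against 105 to 131 CPM with VLDL and 90.7 to 145 CPM with GKT136901. The log2 differences from VLDL of 0.54 (SE 0.324) and 0.45 (SE 0.271) became -0.18 and -0.02 without LPL:VLDL replicate 2. The difference of GKT136901 from LPL:VLDL in SNORD10, -0.65 (SE 0.325), likewise became 0.06.

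LPL:VLDL replicate 2 held the highest value of 45 of the 73 tested members, with a median ratio of 1.48 to the median of the other 14 libraries. Its TMM factor, 0.765, was the lowest of all (range 0.765 to 1.34), and a low factor enlarges every scaled value. With library sizes alone it held the highest value of 21 of the 74 members and the median ratio was 1.11; scaled to the sum of all SNORD counts, 9 members and 0.945. SNORD10 stood 4.08-fold above the other libraries' median with TMM, 3.14-fold with library sizes and 2.8-fold within the SNORD counts, and SNORD9 4.77-, 3.42- and 3.03-fold. SNORD88A stood 2.87-, 2.02- and 1.79-fold above. SNORD10, SNORD9 and SNORD88A were thus high there under each scaling, while most members were not. Some others stood less far above, such as SNORD8 at 2.14-, 1.63- and 1.32-fold. The total of that library, 9.46 M counts, was within the range of the others.

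SNORD133 in LARP4, a gene of a poly(A)-linked RNA-binding protein, was lower under GKT136901 than under VLDL in each of the 5 experiments, as was 1 of 73 members in all (1.37%, against 3.73% of all genes); 1, SNORD1B, was higher in each (3.66%). It measured 5.98, 4.08, 5.01, 5.29 and 4.58 CPM with VLDL, 6.25, 4.43, 2.78, 2.52 and 3.08 CPM with LPL:VLDL, and 2.79, 2.81, 1.95, 1.03 and 4.12 CPM with GKT136901. Only GKT136901 replicate 5 reached into the VLDL range. The log2 difference was -0.97 (SE 0.392, adjusted p = 0.999), and -1.05 (SE 0.355, adjusted p = 0.997) with the block, at 519 counts over all libraries. SNORD124 in MED24, a Mediator subunit gene, differed by 0.62 (SE 0.382) in the same comparison and was higher in 4 of 5 experiments, at 449 counts. SNORD9 differed by -0.94, and leaving out single libraries or experiments moved this between -1.46 and -0.05.

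For GKT136901 against LPL:VLDL the lowest p with the block were those of SNORD136, an orphan in GNL3, SNORD20, an 18S guide in NCL, and SNORD105B. Their log2 differences with the block were 0.49 (SE 0.202), -0.32 (SE 0.134) and -0.26 (SE 0.119). Without experiment 3, which holds LPL:VLDL replicate 2, those of SNORD20 and SNORD105B were -0.21 and -0.10, and that of SNORD136 was 0.21 without experiment 6. SNORD20 and SNORD105B were lower in 4 of 5 experiments and SNORD136 was higher in 3 of 5. SNORD91A in TSR1 was higher in all 5 experiments, 1 of 73 members against 3.2% of all genes, and 0 members were lower in all 5 (3.32%). These differences share the LPL:VLDL libraries with those of LPL:VLDL from VLDL, and the GKT136901 libraries with those of GKT136901 from VLDL.

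**Figure D3:**
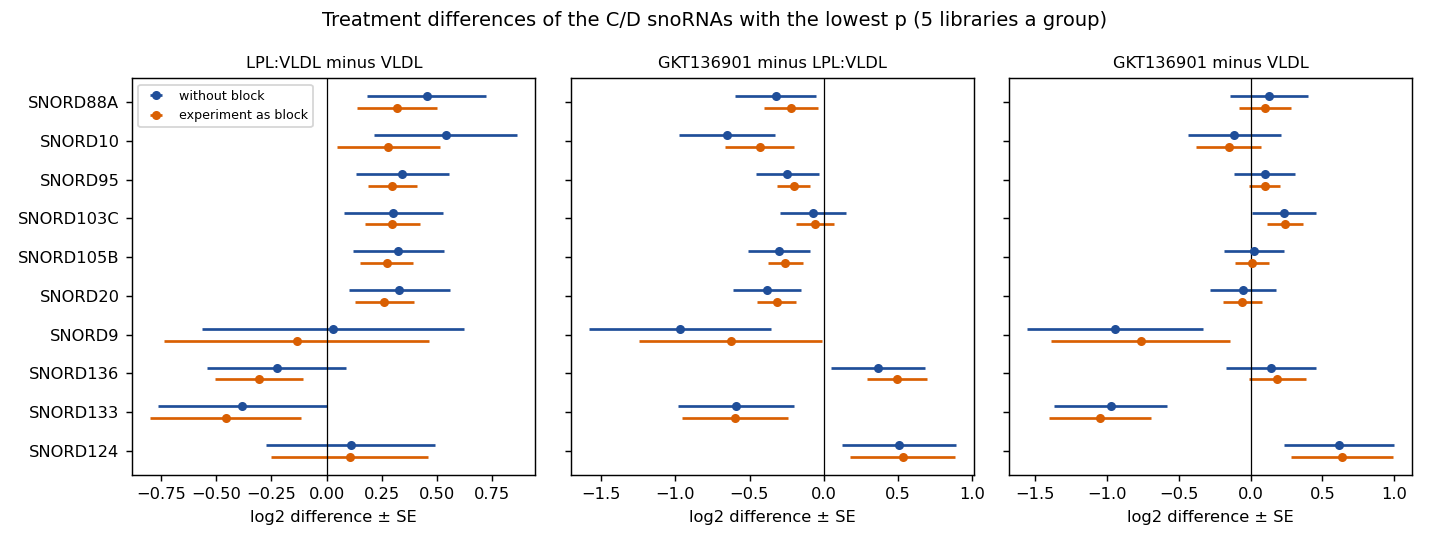
Log2 differences with SE for the 10 snoRNAs with the lowest p in any treatment comparison, without the block and with the experiment as a block (5 libraries a group). No difference passed the adjusted threshold, and SNORD133 lies lowest for GKT136901 minus VLDL at -0.97 and -1.05.

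Many members differed between the experiments. With TMM scaling, 29 of 73 tested members (39.7%) were called for any difference between the 5 experiments, against 11.1% of all genes, or 11.4% of genes with at least 100 counts. Of the 55 C/D snoRNAs inside the ribosomal protein and named host genes at the same minimum, 26 (47.3%) were called. The count was 18 (24.7%, against 7.32% of all genes) without LPL:VLDL replicate 1, 11 (15.1%, against 9.17%) when libraries were scaled to all SNORD counts, and 8 of 72 (11.1%, against 3.76%) among experiments 3 to 6 alone. Under a stricter filter, which kept 712 genes with at least 50 counts in 5 libraries, 16 of 66 members were called (24.2%), against 54.6% of those genes, so the members' share lay above or below the background according to which genes were tested. Under all 4 scalings run (TMM, DESeq2 size factors, library sizes, SNORD counts) 6 of 73 members were called (8.22%), near the 7.07% of all genes. These were SNORD7, SNORD17, SNORD88B, SNORD94, SNORD95 and SNORD136.

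SNORD17, a long guide of 28S ribosomal RNA in SNX5, a sorting nexin gene, was higher in experiments 2 to 4 than in experiments 5 and 6 in every group. It measured 258, 279, 275, 197 and 189 CPM in VLDL replicates 1 to 5, 259, 355, 297, 184 and 178 CPM with LPL:VLDL, and 300, 286, 333, 179 and 199 CPM with GKT136901. The adjusted p in edgeR was 0.00018, and 0.00101 among experiments 3 to 6 alone. SNORD95 (adjusted p = 0.000946) was highest in experiments 3 and 4 in every group. SNORD53 in WDR43, a ribosome biogenesis gene, was called at 0.000436 with TMM and missed the threshold at 0.0505 when scaled to all SNORD counts.

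**Figure D4:**
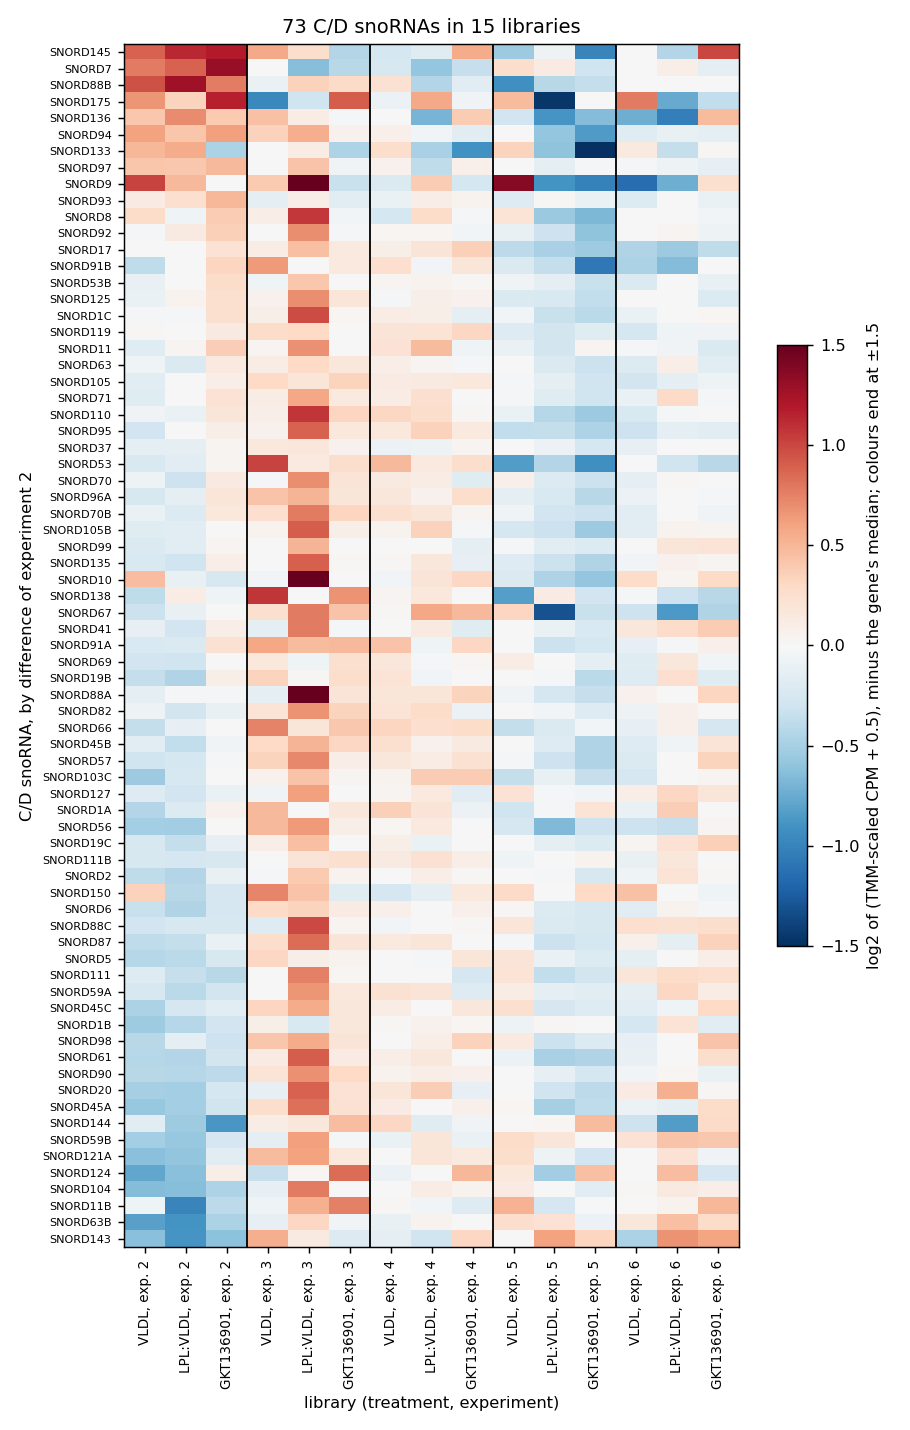
Log2 of TMM-scaled CPM plus 0.5, less each gene's median, for 73 snoRNAs in 15 libraries grouped by experiment and ordered by the difference of experiment 2. Experiment 2 is dark red in the top rows, such as SNORD7, and LPL:VLDL of experiment 3 is red in most rows.

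Experiment 2 was set against the mean of experiments 3 to 6. It is 1 experiment, and the SE and p of this contrast rest on the spread of libraries within experiments. They do not measure how far repeated experiments vary, so a low p describes experiment 2 only. With TMM scaling 6 members (8.22%, against 4.17% of all genes) were higher in experiment 2 and 18 (24.7%, against 6.59%) were lower; among genes with at least 100 counts the shares were 4.27% and 6.75%. The split turned with the scaling: with library sizes alone 26 members were higher (14% of all genes) and 1 was lower (3.29%), and with SNORD counts as the scale 9 were higher (8.15%) and 3 lower (3.76%). The median log2 difference over members was -0.20 with TMM, 0.23 with library sizes and 0.06 with SNORD counts, beside 0.12, 0.55 and 0.38 over all genes. Under the stricter filter 11 of 66 members (16.7%) were higher, against 21.8% of the genes kept, and 8 (12.1%) were lower, against 25.3%. No direction of the members as a whole is given. With TMM and the usual filter, 24 members were called in either direction (32.9%, against 10.8% of all genes), 9 without LPL:VLDL replicate 1 (12.3%, against 6.1%) and 10 without VLDL replicate 1 (13.7%, against 6.58%), both libraries of experiment 2.

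The 6 members called higher in experiment 2 with TMM were called higher under all 4 scalings (8.22%, against 4.17% of all genes). Only 1 of 73, SNORD63B, was lower under all 4 (3.29% of all genes). Library sizes and SNORD counts both move the differences of experiment 2 upward from TMM, so higher calls with TMM are kept. Over all genes 171 were higher with TMM and 171 under all 4, and 135 were lower with library sizes and 135 under all 4. The agreement is thus no separate support, and the split of 6 to 1 depends on that shift. SNORD7 measured 55.1, 59.3 and 79.5 CPM in the 3 libraries of experiment 2 and 20.2 to 38.2 CPM in the other 12, without overlap. Its log2 difference was 1.20 (SE 0.152, adjusted p = 9.23e-07), a 2.3-fold difference, and 1.45 when scaled to SNORD counts. SNORD94, another U6 guide, measured 38.1, 33.4 and 38.5 CPM in experiment 2 and 13.6 to 36.6 CPM elsewhere, where only LPL:VLDL replicate 2 reached the experiment 2 values. Its log2 difference was 0.64 (SE 0.159, adjusted p = 0.00657). With TMM scaling the other U6 guides, SNORD8, SNORD9, SNORD67 and SNORD10, were not called, and SNORD10 differed by -0.14 (SE 0.233, adjusted p = 0.785). With library sizes alone SNORD8 was called higher in experiment 2, by 0.62 (adjusted p = 0.0325 in edgeR), while SNORD9, SNORD67 and SNORD10 were not called.

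SNORD88B measured 25, 31.2 and 21.8 CPM in experiment 2 and 6.42 to 16.1 CPM elsewhere, with no overlap. It differed by 1.16 (SE 0.183, adjusted p = 2.84e-05), while SNORD88A, its close copy in the same host, measured 105, 113 and 114 CPM in experiment 2, inside its range elsewhere. SNORD136 differed by 0.75 (SE 0.193), or 0.37 without LPL:VLDL replicate 1. SNORD97 in EIF4G2, known to guide methylation of a transfer RNA, differed by 0.45 (adjusted p = 0.0439), and SNORD93, an 18S guide, by 0.36 (adjusted p = 0.0142); these last 2 were named after their values were seen.

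SNORD63B measured 33.9, 31.9 and 43.1 CPM in experiment 2 and 54.8 to 82.4 CPM in the other libraries, with no overlap. Its log2 difference was -0.84 (SE 0.148, adjusted p = 0.000146), and -0.42 with library sizes alone (adjusted p = 0.0338). With TMM its hostmate SNORD63 was not called, at 24135 to 30985 CPM in experiment 2 and 22467 to 34622 CPM elsewhere. With library sizes alone SNORD63 was called higher in experiment 2, by 0.39 (adjusted p = 0.000622 in edgeR). SNORD143 in SEC31A, a vesicle coat gene, differed by -0.96, and SNORD104 by -0.67 (SE 0.127, adjusted p = 0.000319) with TMM, but with library sizes alone SNORD104 differed by -0.24 and neither was called. The summed myeloid markers were also higher in experiment 2, as given above; their part in these differences was not tested.

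By deposited length, 14 tested members were over 100 bases and 59 were not. With TMM scaling the longer group had 3 higher and 2 lower calls in experiment 2 and a median log2 difference of 0.02. The shorter group had 3 higher and 16 lower calls and a median of -0.25. Of all genes 4.17% were called higher and 6.59% lower. The lower calls depend on the scaling: over all members 1 was lower with library sizes alone and 3 with SNORD counts. The split by length was not run under those scalings. Length and the difference of experiment 2 correlated weakly across the 73 members (Spearman's rho = 0.252), which share libraries and depth, so this is a description only.

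**Figure D5:**
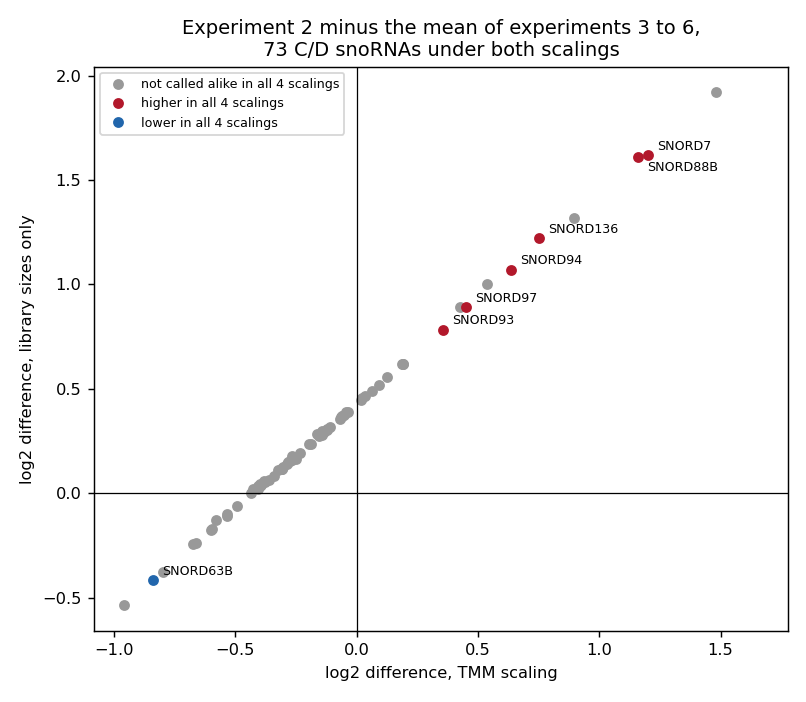
Log2 difference of experiment 2 from the mean of experiments 3 to 6 for 73 snoRNAs, with TMM scaling (horizontal) and library sizes alone (vertical). The points lie on a line shifted upward, so most change sign between the scalings; 6 named members are higher and SNORD63B is lower under all 4 scalings.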

How the data were processed

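Small RNA was sequenced in 15 libraries after TRIzol extraction, DNase treatment and the NEBNext small RNA kit, per the labels' protocols. The deposited values are raw read counts per gene, made by featureCounts 2.0.6 over exons without strand, per the file headers. By that tool's defaults reads that map to several places, or to exons of several genes, are not counted, so identical copies and snoRNAs in exons are lost. The submitters' processing notes name fastp 0.24.0, STAR 2.7.11b and hg38, and R 4.4.2, edgeR 4.4.2 and DESeq2 1.46 with no role. A count may be a whole snoRNA or a fragment.

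From these counts, genes were kept by filterByExpr (minimum count 10, minimum total 15), leaving 4099 genes with 99.7% of counts. TMM factors and edgeR's quasi-likelihood test, two-sided (version 4.0.16 under R 4.3.3), were fitted over all genes with Benjamini-Hochberg adjustment, called under 0.05. Treatments were fitted without the experiment, or with it as a block; experiments were tested beside the group. The labels give same-numbered libraries a shared experiment, which pairs them. Over all tested genes the correlation of deviations was 0.0664 to 0.378 in 15 pairs. Other pairs had a median of -0.0703 and reached 0.148. Over the members the 15 pairs ran from -0.204 to 0.797 (median 0.11), and other pairs had a median of -0.105 and reached 0.598. Libraries of a group differed by far more than counting noise (chi-square over its degrees of freedom 8.59 to 167). DESeq2 1.42.0 and limma 3.58.1 were alternatives, beside other scalings and filters and leaving out libraries. The scaling to SNORD counts and the comparison of experiments 3 to 6 alone were added after seeing the data. Sequences came from GENCODE 29 (GRCh38), read with biopython 1.88, with 62 of 74 members matched; 1 sequence and 1 host are not reported here. Members and lists were chosen with earlier results of these data known. Named members were the 10 most abundant, the 3 lowest p per treatment comparison and fit, the 6 lowest p between experiments, the 3 highest and 3 lowest called differences of experiment 2, and the fixed lists.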

Additional observations from a re-analysis of the deposited data

Results flagged for a closer look

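Within groups of 5 libraries, 99 groups of values (32 named snoRNAs and the members' share, in each of 3 groups) were checked for 1 library far from the other 4. A gap of more than 0.71 of the range was found in 8, and 4 of the 8 were in LPL:VLDL replicate 2. For a single group chance gives about 1 in 20. That rate is no yardstick for the 8, because many of these snoRNAs were named for their values in the same libraries. The snoRNAs also share libraries and scaling. That library measured 1756 CPM for SNORD10 (317 to 498 CPM in the other 4), 329 CPM for SNORD88A (96.3 to 130 CPM), 1021 CPM for SNORD45A (402 to 574 CPM) and 7.2 CPM for SNORD9 (0.657 to 2.52 CPM). SNORD7 was 79.5 CPM in GKT136901 replicate 1, of experiment 2, against 23.7 to 28.8 CPM. SNORD2 was 15453 CPM in VLDL replicate 1, also of experiment 2, against 19330 to 20217 CPM. In GKT136901 replicate 4 SNORD105B was 1138 CPM (1641 to 1771 CPM) and SNORD56 was 32 CPM (39.9 to 42.6 CPM).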

How the results depend on the processing

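No member was called for a treatment under any of the settings run, and the replicate block, which pairs libraries by experiment, changed no member's call. Genes called between LPL:VLDL and VLDL went from 0 to 1 with the replicate block and to 5 with DESeq2 and the block, and were 0 to 2 over the fits that leave out a library or an experiment; DESeq2 with the block called 2 between GKT136901 and VLDL. Without LPL:VLDL replicate 2 SNORD88A and SNORD10 changed sign (ranges with a library or experiment left out -0.0551 to 0.59 and -0.23 to 0.73 against VLDL, and -0.85 to 0.0589 for SNORD10 between GKT136901 and LPL:VLDL).

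Members called between experiments numbered 16 (from 29) under a stricter filter (50 counts in 5 libraries; 66 members tested), 11 when scaled to SNORD counts, 18 to 40 when a library was left out, and 8 without experiment 2, where 145 genes were called (from 455). Calls for experiment 2 were 12 members when scaled to SNORD counts (from 24) and 9 to 29 with a library left out; over all genes they were 709 with library sizes alone (from 441) and 271 to 475 with a library left out. Leaving out a library of experiment 2 leaves 2 there. The causes were not tested. Counts limit the weakest members: 11 members had fewer than 1000 counts over 15 libraries.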
